A study of Bos taurus with 27 samples.

Results

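The type I interferon stimulated genes of the cattle lymph node were followed as 32 stimulated genes and IFNAR1, a chain of the receptor through which type I interferons act. Members were found by gene symbol among the named probes of the array. All 33 were present, on 61 probes, out of 14495 named genes, and the probes of a gene were averaged. The RNA was from superficial cervical lymph node biopsies, a node that collects lymph from skin in front of the shoulder. The 27 arrays fell into 9 groups of 3 biological replicates: Bonsmara, Brahman and Holstein-Friesian cattle, each before any tick was attached (baseline), with attached larvae of the cattle tick Rhipicephalus microplus (larva), and with attached adult ticks (adult). Brahman cattle are zebu (Bos indicus type), Holstein-Friesian cattle are taurine, and the Bonsmara is a composite of Afrikaner and British cattle. Every sample, labelled with the dye Cy5, was set against the same pool of cattle superficial cervical lymph node RNA, labelled with Cy3. Sex, age, tick numbers and whether the stages of a breed came from the same animals are not given in the labels used here. No group of animals kept without ticks to the later stages was among the samples, so tick feeding and time cannot be told apart.

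Type I interferons are secreted by cells that sense viral or other foreign nucleic acid. They bind IFNAR1 and IFNAR2, and the kinases behind the receptor activate transcription factors, among them STAT2, which acts with IRF9 to switch on a shared set of genes. The products of these genes sense RNA, block translation, degrade RNA, modify proteins with the ubiquitin-like ISG15 or interfere with virus assembly. Many of the same genes also respond to interferon gamma, the interferon of T and NK cells, so their name does not tell which interferon was present.

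A value is the log2 ratio of a sample to the pool, likely sample over pool, so 0 equals the pool and a difference of 1 between groups is a doubling if that base and direction hold. A ratio says nothing of the level of 1 gene against another. Fewer cells of a type and less RNA per cell cannot be told apart in whole tissue. Whether marker genes of the node were present at all cannot be read from ratios to a pool of nodes. "Called" means an adjusted p under 0.05 in a limma fit over all 28927 features, with p-values adjusted by the Benjamini-Hochberg method. Array medians over all probes lay between -0.0095 and 0.0059, and the number of arrays limits the precision. In 25 of the 27 arrays the profile over 50 breed-specific features was nearest the labelled breed. The array labelled Holstein-Friesian larva replicate 3 lay nearer Brahman, and its mean correlation with its own group was -0.0986. For the array labelled Bonsmara larva replicate 3 the nearest breed was Holstein-Friesian, and OAS1X and UBA7 were among the 50 features used for it. The breed features used for the Holstein-Friesian array held 0 members. The main results that rest on these arrays are also given without them.

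Most members stood highest in Brahman baseline nodes. The highest of the 9 group means was in Brahman baseline for 29 of 33 members, in Bonsmara baseline for IFI35, PARP9 and SAMD9, and in Brahman adult for IFNAR1. The count of 29 rested in part on 1 array, Brahman baseline replicate 2. Without it the Brahman baseline mean was above that of Bonsmara for 22 members and below it for 11. The lowest group mean was spread more widely, in Holstein-Friesian baseline for 11 members, Holstein-Friesian larva for 10 and Bonsmara larva for 5, and highest and lowest would trade places if the ratio ran the other way. The median log2 ratio over the 33 members was 0.21, 1.25 and 0.19 on the 3 Brahman baseline arrays. It was 0.12, 0.18 and -0.20 on the Bonsmara baseline arrays, and -0.46, -0.23 and -0.28 on the Holstein-Friesian baseline arrays. All 3 Brahman arrays were thus above all 6 arrays of the other breeds at baseline, and Brahman baseline replicate 2 stood far above the rest. With larvae the medians were -0.20, -0.07 and 0.42 in Brahman, -0.25, -0.28 and -0.31 in Bonsmara, and -0.32, -0.45 and -0.22 in Holstein-Friesian. With adult ticks they were -0.11, -0.24 and 0.04 in Brahman, -0.22, -0.21 and -0.06 in Bonsmara, and -0.09, 0.05 and -0.34 in Holstein-Friesian. The breeds overlapped at the adult stage.

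**Figure D1:**
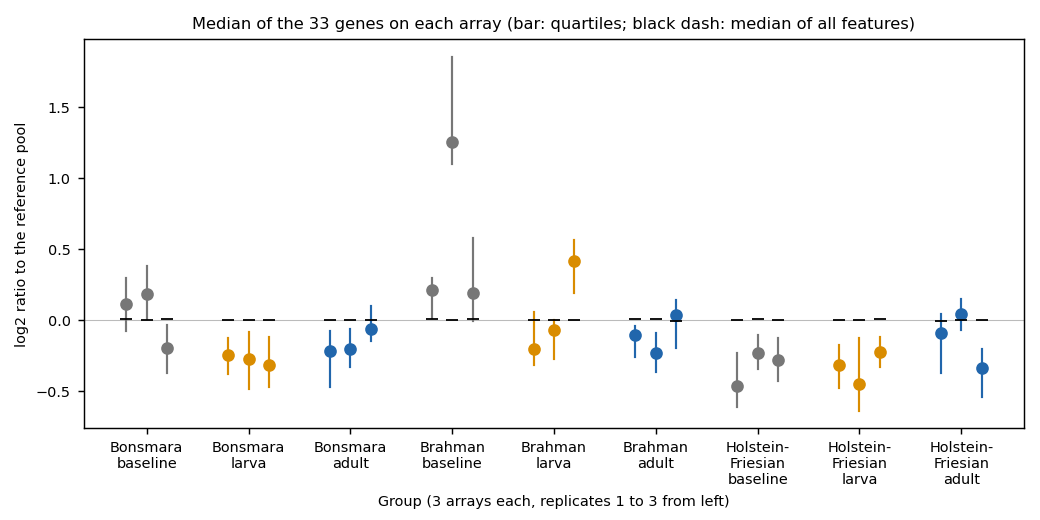
Median log2 ratio to the pool over the 33 members on each array (points; vertical axis), with vertical bars for the quartiles over the members and black dashes for the median of all features, by breed and stage (grey baseline, orange larva, blue adult). Brahman baseline replicate 2 sits at 1.25, while the other 26 arrays lie between -0.46 and 0.42.

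Brahman baseline replicate 2 carried the highest value of 31 of the 33 members, the exceptions being IFNAR1 and PARP9. It was also the array with the largest spread over all probes, with an SD of 0.55 where the lowest of the 27 arrays had 0.22. The mean of the member medians in Brahman baseline was 0.55 ± 0.61 (SD, n = 3), and 0.20 without this array. For comparison it was 0.03 ± 0.20 in Bonsmara baseline and -0.33 ± 0.12 in Holstein-Friesian baseline. On the same array IFNW1, a type I interferon of the omega class, had a log2 ratio of 0.90 against 0.04 and -0.03 on the other Brahman baseline arrays. IFNG, which encodes interferon gamma, was 0.84 there against -0.09 and -0.08. These were the highest of the 7 interferon ligands measured, whose median on this array was -0.06. The median of 10 NK and cytotoxic cell markers was 0.46, that of 10 T cell markers 0.24, that of 9 plasma cell markers -0.79 and that of 9 plasmacytoid dendritic cell markers 0.08. The part of these cell markers in the high member values was not tested.

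**Figure D2:**
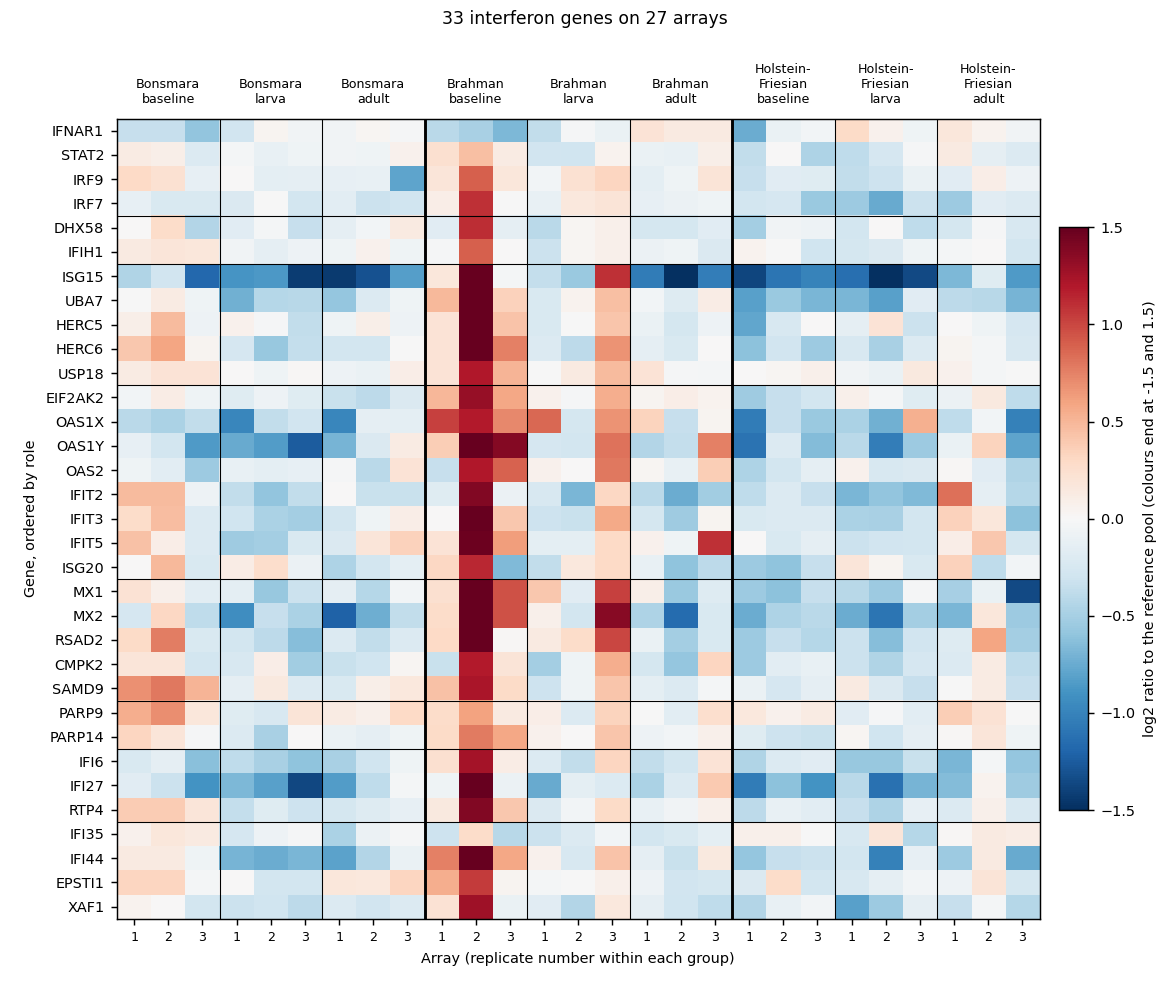
Log2 ratio to the pool (colour scale) of the 33 members (rows, ordered by role) on the 27 arrays (columns, by breed and stage). The column of Brahman baseline replicate 2 holds the highest value of 31 members, and IFNAR1 runs opposite to most rows between baseline and the later stages in Brahman and Bonsmara.

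The stimulated genes varied together from array to array. After the group means were removed, the correlation over the 27 arrays had a median of 0.65 over the 496 pairs of the 32 stimulated genes, with a range from 0.039 to 0.94, where all pairs of genes had a median of 0. These pairs share arrays, and without Brahman baseline replicate 2 the median was 0.40. Over all 27 arrays ISG15 followed the others most closely, with a median r of 0.82, and OAS1X least, with 0.32. Both ranks changed without that array, where ISG15 had 0.58 and OAS1X 0.30. IFIT3 then had the highest median r, 0.65, and IFI35 the lowest, 0.091. IFNAR1 had a median r of 0.17 with the 32 stimulated genes.

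Among the signalling members, STAT2, IRF9 and IRF7 had their highest group mean in Brahman baseline nodes, and IFNAR1 its lowest. Without Brahman baseline replicate 2 the highest group mean of IRF7 was in Brahman larva, 0.08. IRF9 was then nearly level between Brahman baseline and Brahman larva. IFNAR1 encodes the receptor chain that carries the kinase TYK2. Log2 ratios of IFNAR1 in Bonsmara nodes were -0.34, -0.35 and -0.59 at baseline, -0.29, 0.04 and -0.05 with larvae, and -0.05, 0.03 and -0.02 with adult ticks. In Brahman nodes IFNAR1 had -0.40, -0.49 and -0.67 at baseline, -0.37, -0.02 and -0.10 with larvae, and 0.21, 0.14 and 0.13 with adult ticks. Holstein-Friesian nodes had IFNAR1 at -0.75, -0.10 and -0.04 at baseline, 0.29, 0.06 and -0.06 with larvae, and 0.17, 0.05 and -0.05 with adult ticks. Baseline arrays were below the larva and the adult arrays without overlap in Bonsmara and Brahman, whereas in Holstein-Friesian the groups overlapped and replicate 1 was the low baseline array. Over the breeds, IFNAR1 rose by 0.36 (log2 difference, SE 0.087, adjusted p = 0.0431) from baseline to larva. From baseline to adult it rose by 0.48 (SE 0.087, adjusted p = 0.0487). The differences within a breed were 0.33, 0.36 and 0.39 to the larva stage in Bonsmara, Brahman and Holstein-Friesian, and 0.41, 0.68 and 0.36 to the adult stage, with SE 0.151 each, and none was called within a breed. IFNAR1 was measured by 1 probe, and the call was lost without 18 of the 27 arrays in turn for larvae and without 15 for adults, with differences from 0.28 to 0.40 and from 0.41 to 0.53.

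STAT2 and IRF9 belong to the complex that binds interferon response elements, and IRF7 is the factor that amplifies interferon production. Log2 ratios of STAT2 in Brahman nodes were 0.24, 0.45 and 0.12 at baseline, -0.29, -0.30 and 0.05 with larvae, and -0.10, -0.11 and 0.09 with adult ticks. Holstein-Friesian nodes had STAT2 at -0.37, 0.01 and -0.46 at baseline, -0.38, -0.25 and -0.02 with larvae, and 0.14, -0.14 and -0.20 with adult ticks. Bonsmara nodes had STAT2 at 0.12, 0.09 and -0.20 at baseline, -0.03, -0.11 and -0.07 with larvae, and -0.05, -0.06 and 0.07 with adult ticks. The 3 Brahman baseline values lay above every Holstein-Friesian baseline value and above every later Brahman value, and their difference from Holstein-Friesian was 0.54 (SE 0.139, adjusted p = 0.162).

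Log2 ratios of IRF9 were 0.18, 0.90 and 0.17 in Brahman, 0.30, 0.23 and -0.12 in Bonsmara and -0.34, -0.17 and -0.18 in Holstein-Friesian baseline nodes. With larvae IRF9 had -0.04, 0.23 and 0.32 in Brahman, 0.00, -0.15 and -0.14 in Bonsmara and -0.37, -0.31 and -0.10 in Holstein-Friesian. With adult ticks it had -0.15, -0.06 and 0.19 in Brahman, -0.12, -0.11 and -0.79 in Bonsmara and -0.17, 0.10 and -0.08 in Holstein-Friesian. Brahman and Holstein-Friesian did not overlap at baseline or with larvae and overlapped with adult ticks. Their baseline difference was 0.65 (SE 0.187, adjusted p = 0.234). The probes of IRF9 agreed poorly, with a lowest r between probes of 0.19. The value of -0.79 on Bonsmara adult replicate 3 rested on 1 probe, which read -2.24 where the others read -0.29 and 0.15.

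Log2 ratios of IRF7 in Brahman nodes were 0.10, 1.10 and -0.01 at baseline, -0.11, 0.16 and 0.19 with larvae, and -0.12, -0.09 and -0.07 with adult ticks. Holstein-Friesian nodes had IRF7 at -0.27, -0.25 and -0.56 at baseline, -0.54, -0.76 and -0.32 with larvae, and -0.54, -0.17 and -0.21 with adult ticks. All 9 Brahman values were above all 9 Holstein-Friesian values, a split seen after the values were known. Bonsmara nodes had IRF7 at -0.12, -0.23 and -0.23 at baseline, -0.22, -0.01 and -0.28 with larvae, and -0.16, -0.32 and -0.30 with adult ticks. Their group means lay between those of the other breeds at each stage, while the values overlapped with Brahman at the larva stage and with Holstein-Friesian at the adult stage. The Brahman minus Holstein-Friesian difference of IRF7 was 0.76 at baseline (adjusted p = 0.162), 0.62 with larvae (adjusted p = 0.728) and 0.21 with adult ticks (adjusted p = 0.844), each with SE 0.195.

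The RNA sensors had small ranges of group means. IFIH1, which encodes the sensor MDA5 of long double-stranded RNA, had the second smallest range of group means, 0.47. Log2 ratios of IFIH1 were -0.02, 0.90 and 0.00 in Brahman, 0.13, 0.18 and 0.17 in Bonsmara and 0.05, -0.01 and -0.30 in Holstein-Friesian baseline nodes. With larvae IFIH1 had -0.32, 0.03 and 0.08 in Brahman, -0.05, -0.14 and -0.08 in Bonsmara and -0.26, -0.22 and -0.06 in Holstein-Friesian. With adult ticks it had -0.09, -0.07 and -0.22 in Brahman, -0.07, 0.06 and -0.07 in Bonsmara and -0.03, 0.01 and -0.28 in Holstein-Friesian. Apart from Brahman baseline replicate 2 no value was above 0.18. DHX58, which encodes the related protein LGP2, had group means from -0.23 in Brahman adult to 0.27 in Brahman baseline, and its Brahman minus Holstein-Friesian baseline difference was 0.49 (SE 0.244, adjusted p = 0.505).

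With all arrays kept, the ISG15 pathway held the largest Brahman minus Holstein-Friesian baseline difference of the members, that of ISG15. It also held a called one, that of UBA7. Without Brahman baseline replicate 2, where ISG15 was at 2.92, the difference of ISG15 was smaller than those of OAS1X and OAS1Y. UBA7 encodes the enzyme that activates ISG15 for attachment to proteins. Log2 ratios of UBA7 in Brahman nodes were 0.49, 1.96 and 0.35 at baseline, -0.23, 0.05 and 0.45 with larvae, and -0.04, -0.19 and 0.11 with adult ticks. Holstein-Friesian nodes had UBA7 at -0.81, -0.56 and -0.69 at baseline, -0.68, -0.82 and -0.17 with larvae, and -0.39, -0.42 and -0.70 with adult ticks. Bonsmara nodes had UBA7 at -0.01, 0.12 and -0.06 at baseline, -0.72, -0.43 and -0.42 with larvae, and -0.58, -0.21 and -0.06 with adult ticks. Every Brahman baseline value of UBA7 was above all 18 Bonsmara and Holstein-Friesian values. UBA7 was higher in Brahman than in Holstein-Friesian baseline nodes by 1.62 (log2 difference, SE 0.278, adjusted p = 0.0369), and by 1.11 without Brahman baseline replicate 2 (adjusted p = 0.0279). The call of UBA7 was lost without 18 of the 27 arrays in turn.

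ISG15, the modifier itself, had a larger difference and a larger spread. Log2 ratios of ISG15 in Brahman nodes were 0.17, 2.92 and -0.03 at baseline, -0.36, -0.56 and 1.10 with larvae, and -1.05, -1.60 and -1.04 with adult ticks. Holstein-Friesian nodes had ISG15 at -1.38, -1.09 and -1.0 at baseline, -1.13, -1.61 and -1.35 with larvae, and -0.67, -0.18 and -0.85 with adult ticks. Bonsmara nodes had ISG15 at -0.45, -0.29 and -1.18 at baseline, -0.88, -0.86 and -1.42 with larvae, and -1.44, -1.31 and -0.83 with adult ticks. Brahman baseline arrays were above the baseline arrays of both other breeds and above the Brahman adult arrays, and the order of Brahman and Holstein-Friesian was turned at the adult stage, where all 3 Brahman values were the lower. The Brahman minus Holstein-Friesian difference was 2.18 at baseline (SE 0.515, adjusted p = 0.127), 1.42 with larvae (adjusted p = 0.791) and -0.67 with adult ticks (adjusted p = 0.767), so none was called. Both probes of ISG15 agreed, with r = 0.98. All 5 members of the pathway had Brahman baseline arrays above Holstein-Friesian ones without overlap, among them HERC6 (1.34, SE 0.260, adjusted p = 0.0694) and HERC5 (1.24, SE 0.310, adjusted p = 0.153). USP18, the protease that removes ISG15 and restrains the receptor, had the smallest difference of the 5, at 0.60 (SE 0.165, adjusted p = 0.202).

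Of the 8 members that act on RNA, all had positive Brahman minus Holstein-Friesian differences at baseline, with a median of 0.92. EIF2AK2 encodes PKR, the kinase that halts translation when it binds double-stranded RNA. Log2 ratios of EIF2AK2 in Brahman nodes were 0.50, 1.31 and 0.58 at baseline, 0.06, -0.02 and 0.55 with larvae, and 0.04, 0.10 and 0.05 with adult ticks. Holstein-Friesian nodes had EIF2AK2 at -0.53, -0.34 and -0.28 at baseline, 0.08, -0.03 and -0.18 with larvae, and -0.09, 0.15 and -0.38 with adult ticks. Bonsmara nodes had EIF2AK2 at -0.04, 0.11 and -0.07 at baseline, -0.18, -0.08 and -0.18 with larvae, and -0.33, -0.39 and -0.22 with adult ticks. All 3 Brahman baseline values were above the 18 values of the other breeds, and the Holstein-Friesian baseline values were below those of Holstein-Friesian larva arrays. EIF2AK2 was higher in Brahman than in Holstein-Friesian baseline nodes by 1.18 (SE 0.173, adjusted p = 0.0189), the smallest adjusted p of the members. The difference was 0.92 without Brahman baseline replicate 2 (adjusted p = 0.0137) and 0.79 against Bonsmara (adjusted p = 0.0692). The call was lost without 1 of the 27 arrays, Holstein-Friesian baseline replicate 1, and under scaling, quantile normalization, array weights or a fit of the compared arrays alone (adjusted p from 0.0505 to 0.899).

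The OAS1 genes encode enzymes that make short oligoadenylates, which activate RNase L. Log2 ratios of OAS1Y in Brahman nodes were 0.37, 2.81 and 1.38 at baseline, -0.25, -0.28 and 0.82 with larvae, and -0.44, -0.36 and 0.75 with adult ticks. Holstein-Friesian nodes had OAS1Y at -1.11, -0.20 and -0.65 at baseline, -0.41, -1.04 and -0.54 with larvae, and -0.10, 0.33 and -0.79 with adult ticks. Bonsmara nodes had OAS1Y at -0.12, -0.28 and -0.85 at baseline, -0.76, -0.84 and -1.25 with larvae, and -0.70, -0.22 and 0.12 with adult ticks. Its range of group means, 2.47, was the largest of the members, and Brahman baseline arrays were above both other breeds at that stage. The difference from Holstein-Friesian was 2.17 (SE 0.458, adjusted p = 0.0970).

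OAS1X was singled out after its values were seen. Log2 ratios of OAS1X in Brahman nodes were 1.02, 1.19 and 0.72 at baseline, 0.86, -0.26 and 0.67 with larvae, and 0.33, -0.35 and 0.04 with adult ticks. Holstein-Friesian nodes had OAS1X at -1.05, -0.34 and -0.56 at baseline, -0.48, -0.72 and 0.53 with larvae, and -0.38, -0.04 and -1.01 with adult ticks. Bonsmara nodes had OAS1X at -0.41, -0.48 and -0.37 at baseline, -0.98, -0.37 and -0.29 with larvae, and -0.98, -0.14 and -0.15 with adult ticks. The high Holstein-Friesian value of 0.53 was on larva replicate 3, the array nearer Brahman. The baseline difference of OAS1X from Holstein-Friesian was 1.63 (SE 0.331, adjusted p = 0.0788), and 1.52 without Brahman baseline replicate 2 (adjusted p = 0.145). With both arrays nearer another breed left out, OAS1X was called beside EIF2AK2, PARP14 and UBA7. These larva arrays enter the baseline comparison through the shared estimate of the spread alone. OAS1X and UBA7 were themselves among the features that placed the Bonsmara array, so this call is no independent support. OAS1X, OAS1Y and OAS2 are related genes that lie side by side, so probes of 1 may bind RNA of another, and this was not tested. The other members of this role had Brahman minus Holstein-Friesian baseline differences from 0.68 for IFIT2 to 0.97 for IFIT3, and 0 of them were called.

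The GTPases MX1 and MX2, which trap viral particles, had large differences between the breeds at baseline. Log2 ratios of MX2 in Brahman nodes were 0.27, 2.38 and 0.95 at baseline, 0.08, -0.28 and 1.36 with larvae, and -0.46, -1.15 and -0.23 with adult ticks. Holstein-Friesian nodes had MX2 at -0.74, -0.46 and -0.41 at baseline, -0.75, -1.09 and -0.51 with larvae, and -0.68, 0.17 and -0.54 with adult ticks. Bonsmara nodes had MX2 at -0.25, 0.31 and -0.38 at baseline, -0.93, -0.35 and -0.47 with larvae, and -1.21, -0.73 and -0.37 with adult ticks. Brahman baseline was above Holstein-Friesian baseline and above Brahman adult without overlap, and overlapped with Bonsmara baseline at 0.31. The difference from Holstein-Friesian was 1.74 for MX2 (SE 0.423, adjusted p = 0.135) and 1.68 for MX1 (SE 0.374, adjusted p = 0.106). RSAD2, which encodes viperin, had 1.31 (SE 0.395, adjusted p = 0.260). CMPK2, its neighbour in the genome, had 0.62 (SE 0.301, adjusted p = 0.489). SAMD9, an antiviral and growth-restraining protein, had baseline means of 0.66 ± 0.14 in Bonsmara and 0.65 ± 0.49 in Brahman (SD, n = 3). These differed from Holstein-Friesian by 0.82 (adjusted p = 0.122) and 0.81 (adjusted p = 0.156). The Brahman values of SAMD9 ran from 0.29 to 1.22, the highest on replicate 2, and without that array the Brahman mean was below the Bonsmara mean.

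PARP14 and PARP9 encode ADP-ribosyltransferases of the interferon response. Log2 ratios of PARP14 in Brahman nodes were 0.29, 0.78 and 0.58 at baseline, 0.06, 0.00 and 0.42 with larvae, and -0.08, -0.04 and 0.08 with adult ticks. Holstein-Friesian nodes had PARP14 at -0.18, -0.31 and -0.33 at baseline, 0.03, -0.30 and -0.13 with larvae, and 0.02, 0.18 and -0.06 with adult ticks. Bonsmara nodes had PARP14 at 0.32, 0.18 and -0.02 at baseline, -0.20, -0.49 and 0.00 with larvae, and -0.10, -0.14 and -0.07 with adult ticks. Brahman baseline arrays were above all 9 Holstein-Friesian arrays and overlapped with Bonsmara baseline. PARP14 was higher in Brahman than in Holstein-Friesian baseline nodes by 0.82 (SE 0.142, adjusted p = 0.0369), and by 0.71 without Brahman baseline replicate 2, where the call was lost (adjusted p = 0.0844), as it was without 15 of the 27 arrays in turn. PARP9 had its highest group mean in Bonsmara baseline, 0.47, and a Brahman minus Holstein-Friesian baseline difference of 0.22 (SE 0.162, adjusted p = 0.702).

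IFI44 and IFI35 lay at opposite ends of the remaining members. Log2 ratios of IFI44 in Brahman nodes were 0.76, 2.16 and 0.58 at baseline, 0.06, -0.24 and 0.43 with larvae, and -0.14, -0.33 and 0.15 with adult ticks. Holstein-Friesian nodes had IFI44 at -0.58, -0.34 and -0.32 at baseline, -0.28, -1.01 and -0.12 with larvae, and -0.54, 0.14 and -0.76 with adult ticks. Bonsmara nodes had IFI44 at 0.13, 0.14 and -0.06 at baseline, -0.70, -0.75 and -0.69 with larvae, and -0.80, -0.44 and -0.10 with adult ticks. The 3 Brahman baseline values of IFI44 were above the other 24 values. The difference from Holstein-Friesian was 1.58 (SE 0.311, adjusted p = 0.0713).

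Log2 ratios of IFI35 were -0.31, 0.27 and -0.42 in Brahman, 0.07, 0.17 and 0.13 in Bonsmara and 0.08, 0.08 and -0.01 in Holstein-Friesian baseline nodes. With larvae IFI35 had -0.32, -0.20 and -0.04 in Brahman, -0.25, -0.08 and -0.02 in Bonsmara and -0.24, 0.18 and -0.43 in Holstein-Friesian. With adult ticks it had -0.27, -0.23 and -0.15 in Brahman, -0.47, -0.09 and -0.02 in Bonsmara and 0.02, 0.13 and 0.11 in Holstein-Friesian. Its range of group means, 0.34, was the smallest of the members, and its Brahman minus Holstein-Friesian baseline difference was -0.21 (SE 0.158, adjusted p = 0.723). The 2 probes of IFI35 agreed poorly (r = 0.26). On 1 probe Brahman lay below Holstein-Friesian at baseline without overlap, and on the other probe the breeds overlapped. The members at the membrane or in mitochondria, IFI27, IFI6 and RTP4, had Brahman arrays above Holstein-Friesian ones at baseline without overlap, with differences from 0.81 for IFI6 to 1.39 for IFI27 (adjusted p = 0.266 and 0.183). The probes of IFI6 disagreed (r = 0.042), 1 reading 2.38 and the other 0.13 on Brahman baseline replicate 2, so the averaged value understates the moving probe.

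**Figure D3:**
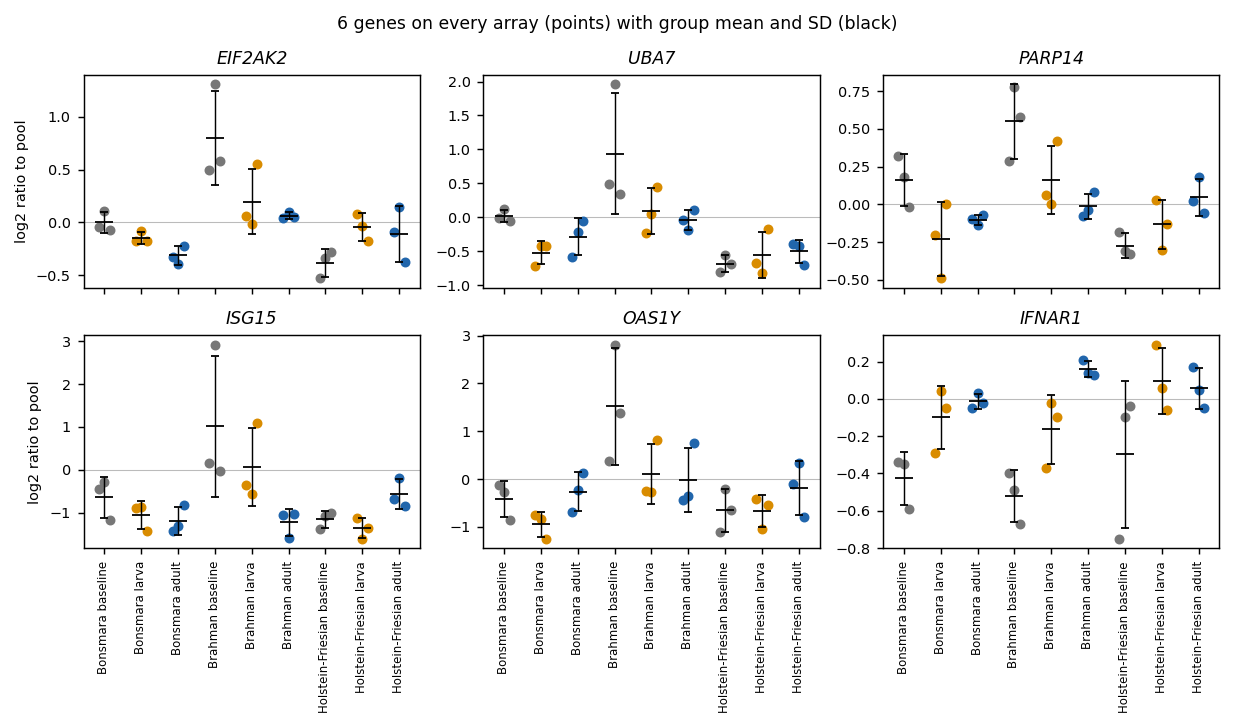
Log2 ratio to the pool (vertical axes) on every array (points) for 6 members by breed and stage (grey baseline, orange larva, blue adult), with the group mean and SD in black. UBA7 and EIF2AK2 have all 3 Brahman baseline points above the Bonsmara and Holstein-Friesian points, and IFNAR1 has its Bonsmara and Brahman baseline points below the later ones.

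Counted over the members, Brahman and Holstein-Friesian differed most at baseline. The test called 3 of 33 members higher in Brahman (EIF2AK2, PARP14 and UBA7) and 0 lower, where it called 0.0173% of the 28927 features higher and 0.00346% lower. The difference was positive for 31 of 33 members, with a median of 0.82, where the median over all features was 0.0095. Differences with an unadjusted p under 0.05 are called nominal here, and 28 members were nominally higher in Brahman, against 6.4% of features. The arrays of the groups did not overlap for 23 members, all higher in Brahman, where 5.93% of features were higher and 5.23% lower without overlap. Without Brahman baseline replicate 2 the median was 0.49, and EIF2AK2 and UBA7 were called, where 0.0726% of features were. In that setting 23 members were higher and IFI35 was lower without overlap, against 11.6% and 10.2% of features.

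The median difference had lower values at the later stages, and no member's change in it was called. At the larva stage limma called 0 members in Brahman against Holstein-Friesian (0.0% of features), and 6 were nominally higher in Brahman (3.4%), with a median difference of 0.33. There 8 members were higher without overlap (4.22% of features), and 17 without Holstein-Friesian larva replicate 3 (15.4%). IRF7, ISG15 and MX2 were among the 8. At the adult stage limma called 0 members (0.0%), 0 were nominally different (10.1%) and the median difference was -0.0046.

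Bonsmara stood between the other breeds at baseline. Against Holstein-Friesian, limma called 0 members, where it called 0.225% of features. The difference was positive for 31 of 33 members with a median of 0.37, and 7 members were nominally higher (6.28% of features). The arrays did not overlap for 17 members, all higher in Bonsmara (9.07% of features). SAMD9 was called without Brahman baseline replicate 2 (adjusted p = 0.0330, 0.259% of features called). Against Bonsmara, Brahman had 0 members called (0.152% of features) and 17 nominally higher (7.28%), with a median difference of 0.54. Arrays were higher in Brahman without overlap for 10 members (7.42% of features). Without Brahman baseline replicate 2 the median was 0.16, and 10 members were higher and 4 lower without overlap (13.3% and 13.6% of features). OAS1Y had the largest of these differences, 1.94 (SE 0.458, adjusted p = 0.0906).

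With larvae limma called 0 members between Brahman and Bonsmara (0.0%), 8 were nominally higher in Brahman (3.13%) and the median was 0.29. Between Bonsmara and Holstein-Friesian it called 0 (0.0%), with 0 nominal differences (4.63%) and a median of 0.0052, or 0.056 without the arrays nearer another breed. With adult ticks limma called 0 members between Brahman and Bonsmara (0.0%), with 2 nominal differences (5.65%) and a median of 0.066. Between Bonsmara and Holstein-Friesian it called 0 (0.00346%), with 0 nominal differences (6.71%) and a median of -0.039. The 3 breed comparisons of a stage share their arrays, so their values are given side by side only.

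**Figure D4:**
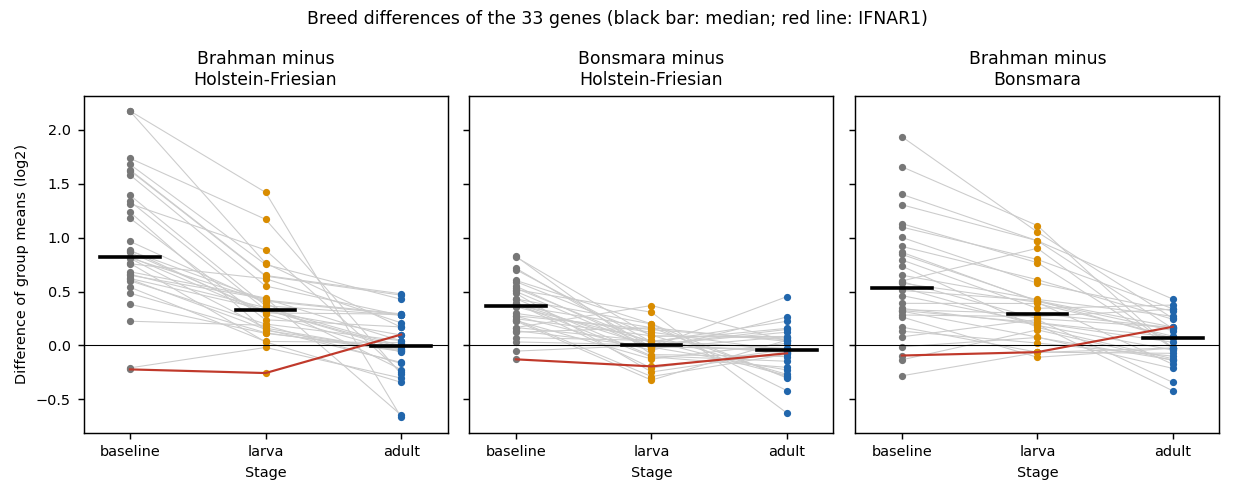
Log2 difference between the group means of 2 breeds (vertical axis) for the 33 members (points, joined by a line for each gene) at each stage, 1 panel for each pair of breeds, with black bars for the medians and a red line for IFNAR1. Brahman minus Holstein-Friesian values at baseline run from -0.22 to 2.18, with medians of 0.82, 0.33 and -0.0046 at baseline, larva and adult.

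Between stages the stimulated genes had lower values after baseline in Brahman and Bonsmara, with medians nearer 0 in Holstein-Friesian. In Brahman, the adult minus baseline difference was negative for 32 of 33 members, all but IFNAR1, with a median of -0.68 and a lowest value of -2.25 for ISG15 (SE 0.515, adjusted p = 0.180). Limma called 0 members (0.0% of features), 9 without Brahman baseline replicate 1 (0.339%) and 3 without replicate 3 (0.442%), while 25 were nominally lower in adults, against 6.81% of features. Adult arrays lay below baseline arrays without overlap for 20 members (6.54% of features). Without Brahman baseline replicate 2 it was again 20 members (13.3%), the median was -0.34 and 14 members were nominally lower (5.74%). From baseline to larva in Brahman, limma called 0 members (0.0%), the median was -0.58 and 18 members were nominally lower (5.91%). Without replicate 2 the median was -0.22 and 3 members were nominally lower (4.62%), so the size of the larva difference in Brahman rested largely on 1 array.

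In Bonsmara the larva minus baseline difference was negative for 29 of 33 members, with a median of -0.38. Limma called 0 members, where it called 1.11% of features, and 7 members were nominally lower (8.73%). SAMD9 had the smallest adjusted p, with a difference of -0.72 (SE 0.204, adjusted p = 0.0843). Leaving out Brahman baseline replicate 2, which enters here through the shared estimate of the spread alone, SAMD9 (adjusted p = 0.0326) and RTP4 (-0.60, adjusted p = 0.0224) were called lower, with 1.3% of features called. Without the arrays nearer another breed, 0 members were called and the median was -0.28. Both values were the same when Brahman baseline replicate 2 was also left out. With all arrays kept, larva arrays lay below baseline without overlap for 14 members, at a share of 13.9% over all features, among them IFI44, RTP4 and SAMD9. From baseline to adult, limma called 0 members (0.0311%), 3 were nominally lower (6.59%) and the median was -0.25.

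In Holstein-Friesian limma called 0 members from baseline to larva (0.00346%) or to adult (0.0%). The median differences were -0.030 and 0.18, and the adult difference was positive for 28 of 33 members. Nominal differences were found for IFNAR1 alone with larvae (5.95% of features), and for IFNAR1 and PARP14 with adults (4.88%), all of them higher than at baseline. Without the arrays nearer another breed the larva median was -0.086. When Brahman baseline replicate 2 was also left out, 3 members were nominally higher and 2 nominally lower with larvae, and 0 were called. Averaged over the breeds, the test called 1 member, IFNAR1, higher with larvae (0.684% of features higher) and with adults (0.0311%). The medians were -0.33 for larvae and -0.26 for adults, with 17 members (6.58% of features) and 14 members (5.78%) nominally lower. Leaving out Brahman baseline replicate 2 gave a larva median of -0.17 and an adult median of -0.16. In that setting 12 members were nominally lower and 1 higher with larvae, and 8 were lower and 1 higher with adults.

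From larva to adult limma called 0 members in Bonsmara (0.0484% of features), Brahman (0.00346%), Holstein-Friesian (0.00346%) or over the breeds (0.232%). Nominal differences numbered 1 (9.48% of features), 3 (8.0%), 1 (4.76%) and 1 (10.2%) in the same order, and the median differences were 0.10, -0.15, 0.18 and 0.043.

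**Figure D5:**
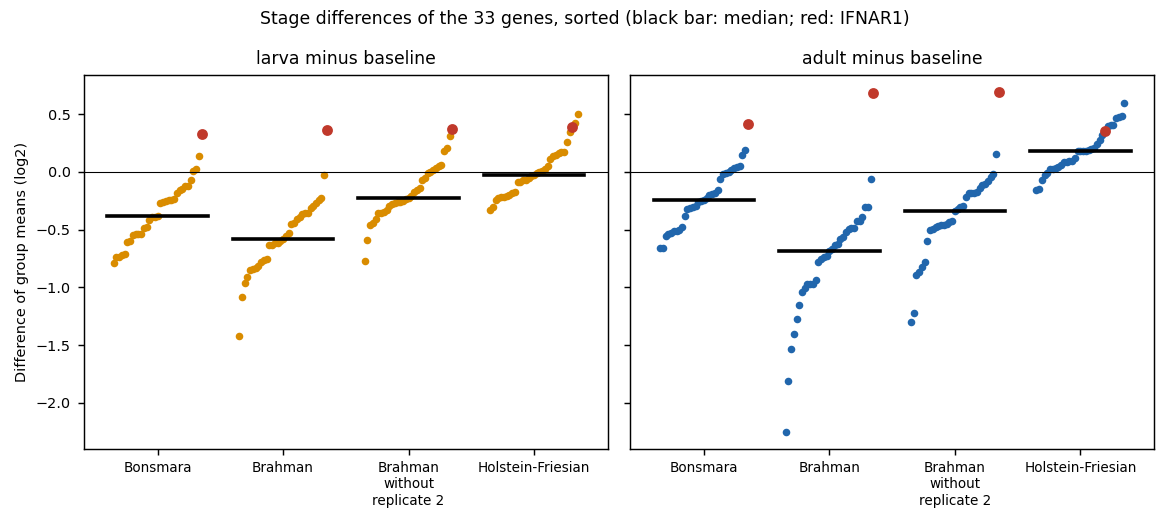
Log2 difference from baseline (vertical axis) of the 33 members (points, sorted) in each breed, larva on the left and adult on the right, with black bars for the medians and IFNAR1 in red; Brahman is also drawn without baseline replicate 2. In Brahman 32 of 33 adult differences lie below 0, and in Holstein-Friesian 28 of 33 lie above 0.

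The differences of these responses between breeds were tested directly, and limma called 0 members in any of the 6 comparisons. The adult response of Brahman minus that of Holstein-Friesian had a median of -0.86 and 22 members nominally lower (3.03% of features), with 0.0% of features called. ISG15 had -2.84 (SE 0.729, adjusted p = 0.864) and PARP14 -0.89 (SE 0.200, adjusted p = 0.864). Without Brahman baseline replicate 2 the median was -0.52 and 14 members were nominally lower (3.38%). The larva response of Brahman minus that of Holstein-Friesian had a median of -0.53 and 10 members nominally lower (2.86%), with 0.0% called, and a median of -0.15 without replicate 2. Bonsmara minus Holstein-Friesian had a median of -0.36 for larvae, with 3 members nominally lower (4.69%) and 0.00691% of features called. For adults it was -0.39, with 5 members (4.21%) and 0.0% called. Brahman minus Bonsmara had a median of -0.24 for larvae with 0 nominal differences (9.72%), and -0.44 for adults with 6 members nominally lower (3.38%), both with 0.0% called. Leaving out replicate 2 turned the sign of that larva median, to 0.19 with 27 of 33 members positive and 2 nominally higher. The adult median was then -0.11, with 1 member nominally higher and 1 nominally lower. The F test of the breed by stage interaction called 0 members (0.0%), 8 were nominal where 6.99% of features were, and the smallest adjusted p was 0.584 for PARP14. These comparisons share the baseline arrays.

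The rest of the pathway was counted from lists chosen by role. In Brahman against Holstein-Friesian baseline nodes 0 genes of the 17 lists were called. The median difference was 0.33 over 32 other type I interferon stimulated genes, 0.38 over 14 genes induced by interferon gamma, 0.068 over 7 interferon ligands, 0.054 over 17 nucleic acid sensors and adaptors, and 0.14 over 16 receptors and signalling proteins. OAS1Z, a further oligoadenylate synthetase gene, had 1.55 (SE 0.294, adjusted p = 0.0613), and PLAC8A 2.02 (SE 0.390, adjusted p = 0.0694). Beside these, 10 NK and cytotoxic markers had a median of 0.40, with array medians from -0.41 to 0.46 in Brahman and from -0.29 to -0.20 in Holstein-Friesian. Markers of macrophages (11 genes) had -0.26 and those of plasmacytoid dendritic cells (9 genes), which make much type I interferon, 0.036. The part of these cells in the member differences was not tested.

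Bonsmara baseline nodes differed from Holstein-Friesian ones in the interferon gamma genes. There 6 of 14 were called higher, where 0.194% of features were higher and 0.0311% lower, among them the chemokines CXCL11 (3.26, SE 0.362, adjusted p = 2.42e-04) and CXCL9 (3.27, SE 0.471, adjusted p = 0.00240), which draw T cells, and IDO1 (2.49, SE 0.381, adjusted p = 0.00384), which degrades tryptophan. IFNG was higher by 0.93 (SE 0.187, adjusted p = 0.0314), and IRF1, a factor that interferon gamma induces, by 1.16 (SE 0.196, adjusted p = 0.00813). Of 10 NK and cytotoxic markers, 5 were higher, with array medians from 0.35 to 1.09 in Bonsmara and from -0.29 to -0.20 in Holstein-Friesian. Of the 32 other type I genes, PLAC8A and GBP5 were higher. UNC93B1, which delivers nucleic acid sensing Toll-like receptors to endosomes, was lower, with a difference of -0.82 (SE 0.162, adjusted p = 0.0293).

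The same lists moved from baseline to larva. In Bonsmara 6 of the 14 interferon gamma genes fell, where 0.608% of features did, among them CXCL9 with a difference of -3.50 (SE 0.471, adjusted p = 9.55e-04) and CXCL11 with -2.83 (SE 0.362, adjusted p = 6.07e-04). IFNG fell by 0.91 (SE 0.187, adjusted p = 0.0163). Over the breeds 5 of 14 fell, where 0.529% of features did, and so did 5 of the 32 other type I genes: PLAC8A, SIGLEC1, PARP12, OASL and GBP4. OASL, an inactive relative of the oligoadenylate synthetases, fell by 0.58 (SE 0.127, adjusted p = 0.0223). GBP4 is on both lists, and SIGLEC1, which fell by 1.18 (SE 0.239, adjusted p = 0.0141), is also a macrophage marker. With these, 5 of 10 NK and cytotoxic, 4 of 10 T cell and 2 of 11 macrophage markers fell, and 5 of 9 plasma cell and 7 of 10 stromal markers rose. Array medians of the stromal markers in Bonsmara lay between -0.72 and -0.49 at baseline and between 0.20 and 0.62 with larvae. In Holstein-Friesian they lay between -0.488 and -0.356 at baseline and between -0.006 and 0.087 with larvae. The stages overlapped in Brahman, with -0.505 to -0.235 at baseline and -0.27 to 0.275 with larvae. The part of these cell markers in the lower member values with larvae was not tested. From baseline to adult over the breeds, 0 genes of the 17 lists were called.

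Outside the member list, the genes whose deviations from the group means followed the mean of the members most closely were ZNFX1, an RNA helicase of the antiviral response, with r = 0.92 over 27 arrays, EHHADH (0.92), ADAR, the RNA editing enzyme (0.89), TDRD7 (0.89), TSSK3 (0.88) and PILRA (0.88). Without Brahman baseline replicate 2 these were 0.80, 0.77, 0.67, 0.74, 0.67 and 0.61. ZNFX1, ADAR and TDRD7 are among the other type I genes counted above. By the RefSeq gene order of the ARS-UCD2.0 assembly, 10 pairs of members lie with at most 2 protein-coding genes between them. Their median correlation was 0.77, against 0.65 over all pairs of stimulated genes. Both values include Brahman baseline replicate 2, without which the median over all pairs was 0.40. IFIT2 and IFIT3 had 0.86, OAS1Y and OAS2 0.82, CMPK2 and RSAD2 0.80, MX1 and MX2 0.80, and HERC5 and HERC6 0.74. OAS1X, next to OAS1Y, had 0.39 with it and 0.14 with OAS2.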

How the data were processed

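The authors' values are log2 ratios of each sample to the pool, normalized before they were deposited, on 45220 probes and 27 arrays. The submitters' processing notes name limma. Background correction, normalization method and version: not given in the sources used here. Neither base nor direction is named in the file; sample over pool was taken as likely from the dyes per the labels, and base 2 from the usual limma scale. How far a signal stood over background cannot be known without scanner intensities. Probe names came from the platform's gene table, brought up to date with RefSeq (ARS-UCD2.0): 30788 probes had 1 symbol and 14432 none. Probes of a gene were averaged. limma 3.58.1 in R 4.3.3 fitted 9 group means to all 27 arrays (18 residual degrees of freedom), two-sided, with Benjamini-Hochberg adjustment over 28927 features, in 27 comparisons and 1 interaction test. P-values use the spread between arrays in all groups. The code was tested on simulated data. Values on every array were printed for members called in any comparison, the 4 with the largest and 2 with the smallest range of group means, and the signalling members. List genes were named where called, or by smallest p. The members and lists were chosen with earlier results of these data known. Alternatives left out arrays, rescaled or quantile-normalized them, weighted them, added a replicate block, dropped features of low variance, used the compared arrays alone or tested each probe.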

Additional observations from a re-analysis of the deposited data

How the results depend on the processing

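The members called in Brahman against Holstein-Friesian baseline nodes numbered 3. The count was 0 with arrays scaled to one interquartile range, with array weights and with the compared arrays alone, 1 after quantile normalization, and 7 with a filter on low variance (0.173% of features called there, 0.0207% in the full fit). Leaving out 1 array at a time gave 0 to 14 (0 without Holstein-Friesian baseline replicate 1, 13 and 14 without Brahman baseline replicates 1 and 3, with 0.384% and 0.626% of features, and 6 without Holstein-Friesian larva replicate 3, with 0.169%), so the number of calls depended on single arrays and settings. EIF2AK2 lost its call without 1 array of 27, PARP14 without 15 and UBA7 without 18. The calls of IFNAR1, 1 member for larvae and 1 for adults over the breeds, became 0 under scaling, quantile normalization, the low variance filter and the compared arrays alone. For larvae the count was also 0 with array weights and, chosen after seeing the data, with both arrays nearer another breed left out, and 4 with each probe on its own. For adults it was 0 with each probe on its own. Leaving out 1 array gave 0 to 4 for larvae (0 without Brahman baseline replicate 2, 4 and 3 without replicates 1 and 3, 2 without Brahman larva replicate 3, where 1.65%, 1.22% and 0.816% of features were called) and 0 to 1 for adults.

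Counts that were 0 also moved. Larva minus baseline in Bonsmara gave 1 after quantile normalization, 6 with array weights (5.74% of features), 1 with each probe on its own and 0 to 2 with 1 array left out. With 3 arrays that stood apart left out, Bonsmara against Holstein-Friesian baseline gave 1 and Brahman against Holstein-Friesian larva 2 (0.315% and 0.799% of features). Leaving out 1 array gave 0 to 1 for larva minus baseline in Brahman and for Bonsmara against Holstein-Friesian baseline, 0 to 9 for adult minus baseline in Brahman (9 and 3 without baseline replicates 1 and 3) and 0 to 7 for Brahman against Bonsmara baseline (5 and 7 without Brahman baseline replicates 1 and 3, with 0.64% and 1.55% of features). The cause of these changes was not tested. The mean of the Brahman baseline medians was 0.55, and 0.20 without replicate 2.

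Whether equal replicate numbers within a breed mark the same animal could not be decided, because samples of different numbers were not compared. Of 27 same-number pairs, 7 had deviations from the group means that correlated above 0.1, with a range from -0.30 to 0.18. Between larva and adult the correlations were 0.163, 0.106 and 0.081 in Bonsmara and 0.181, 0.055 and 0.143 in Brahman. In Holstein-Friesian they were 0.042, -0.138 and -0.015. With a replicate block Brahman against Holstein-Friesian baseline gave 1 call, and larva or adult minus baseline over the breeds 0, as they did with the block within breed.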
